A study of Mus musculus with 17 samples.

Results

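Small leucine-rich proteoglycans are short secreted proteins of the ECM, and 8 of their genes were followed through lung fibroblasts of control and Ephb4 conditional KO mice: Bgn (biglycan), Dcn (decorin), Aspn (asporin), Lum (lumican), Fmod (fibromodulin), Prelp, Ogn (osteoglycin) and Podn (podocan). They were chosen by family membership, not by their values, and all 8 were found among the 55421 genes of the count table. The cells came from 17 Ephb4f/f;Col1a2-CreERT mice on a C57BL/6J background, in which Cre is driven by Col1a2, so that only cells using that promoter lose Ephb4. At 4 weeks of age mice received 4-hydroxytamoxifen at 1 mg per day for 5 days (Ephb4-CKO) or corn oil (Ephb4 control), and at 6 weeks they received intratracheal bleomycin (1.2 U/kg), which injures the lung and leads to fibrosis, or PBS as its vehicle. The control mice thus carried the same floxed alleles and transgene and differed in tamoxifen exposure as well as in recombination. Fibroblasts were grown from the lungs 14 days after bleomycin and passaged 1 time, and each library held the total RNA of 1 mouse: control mice numbered 4 after PBS and 4 after bleomycin, Ephb4-CKO mice 5 after PBS and 4 after bleomycin. The total count per library was 66540022 to 120554468, with a median of 93075927.

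Each core protein of the family carries a run of leucine-rich repeats that lies along collagen fibrils, and most carry side chains of chondroitin, dermatan or keratan sulfate. They set how wide collagen fibrils grow and how they are spaced, and several also hold growth factors of the TGF-β family in the matrix. In lung, fibroblasts are the main source of biglycan and decorin, and these proteoglycans are laid down with collagen when tissue scars. Bgn, Dcn and Aspn form class I of the family, Lum, Fmod and Prelp class II, Ogn class III and Podn class V.

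Dcn, Lum, Aspn, Ogn, Prelp and Fmod sit in clusters that other family members share, and no listed family member lies beside Bgn or Podn. On GRCm38 (GENCODE M21) Dcn (chromosome 10, 97479609 to 97518143, plus strand) lies beside Lum (97565128 to 97572703), followed by Kera and Epyc. Aspn (chromosome 13, 49544443 to 49567565) and Ogn (49608046 to 49624501) lie on the plus strand inside the span of Cenpp, which runs on the opposite strand. Prelp (chromosome 1, 133910304 to 133921414, minus strand) and Fmod (134037254 to 134048277, plus strand) are neighbours, and Prelp overlaps the antisense gene Gm15851. Bgn is on chromosome X (73483602 to 73495933, plus strand). Podn (chromosome 4, 108014791 to 108096445, minus strand) overlaps Scp2 on the same strand, so its count depends on how reads were divided between them and is uncertain.

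The bases just before the start sites are shown for 3 genes whose levels took 3 different courses in these cultures: Bgn was high in every culture of bleomycin-treated control mice, Ogn was high in most of them, and Fmod was highest in a culture from an Ephb4-CKO mouse. The RefSeq table (GRCm38.p6) held 7 start sites for 6 of the 8 genes; Dcn and Lum were not among them. Each line gives the 250 bases before the site, 5′ to 3′ on the gene's strand, and capitals mark every match, on either strand, to 6 short motifs.
Bgn, chrX:73483351-73483600, plus strand: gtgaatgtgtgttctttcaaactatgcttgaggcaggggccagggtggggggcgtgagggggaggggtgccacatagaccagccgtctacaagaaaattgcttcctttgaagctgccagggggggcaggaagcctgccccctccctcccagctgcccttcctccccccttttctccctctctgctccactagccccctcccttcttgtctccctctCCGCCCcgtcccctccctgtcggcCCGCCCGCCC
Ogn, chr13:49607765-49608014, plus strand: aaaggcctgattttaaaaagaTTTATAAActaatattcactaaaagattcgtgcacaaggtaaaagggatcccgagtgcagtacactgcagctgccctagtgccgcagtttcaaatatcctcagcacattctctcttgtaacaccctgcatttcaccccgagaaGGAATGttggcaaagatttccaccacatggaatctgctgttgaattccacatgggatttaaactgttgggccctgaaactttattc
Fmod, chr1:134037004-134037253, plus strand: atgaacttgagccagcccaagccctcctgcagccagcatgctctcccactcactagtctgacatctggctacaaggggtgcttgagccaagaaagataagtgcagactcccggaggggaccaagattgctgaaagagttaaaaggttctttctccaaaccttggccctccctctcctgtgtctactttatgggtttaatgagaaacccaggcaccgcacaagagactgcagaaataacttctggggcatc
The Bgn window ended in GC boxes (GGGCGG, here on the opposite strand) that began 34, 10 and 6 bases before the start site, the last pair overlapping. The Ogn window held TATAAA on each strand, in overlapping matches that began 227 and 229 bases before the site. It also held a TEAD motif (GGAATG) that began 86 bases before the site. The Fmod window held no match to any motif searched. Among 32851 mouse promoters of the same length, 32.7% held GGGCGG, 12.4% TATAAA, 33.8% the CCAAT box, 12.6% GGAATG, 6.75% the AP-1 motif TGANTCA and 17.1% the SMAD motif CAGACA. These matches describe the letters only.

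Bgn and Dcn made up most of the summed level of the 8 genes in every library. CPM (counts scaled to a common library size by TMM) was compared between genes only after dividing by the length of each gene's principal transcript, as CPM per kb. On that scale the median over 17 libraries was 25.8 for Dcn, 12.4 for Bgn, 0.673 for Lum, 0.343 for Prelp, 0.152 for Ogn, 0.0267 for Aspn, 0.0163 for Podn and 0 for Fmod. The medians, taken for each gene separately, reversed the order of Bgn and Dcn found in the bleomycin-treated control cultures. There Bgn took 62.5% to 75.2% of the summed CPM per kb of the 8 genes in each library and Dcn 19.2% to 36.1%. Ogn took 0.248% to 7.62%, and in control bleomycin mouse 1, where Ogn was lowest, Lum took 0.747%. Within single libraries of the other groups the order varied. Dcn per kb over Bgn per kb was 0.597, 0.701, 0.776 and 2.90 in control PBS mice 1 to 4. It was 59.6, 0.655, 0.672, 1.66 and 3.41 in Ephb4-CKO PBS mice 1 to 5. In Ephb4-CKO bleomycin mice 1 to 4 it was 0.362, 0.287, 1.23 and 1.06. Genes were kept for the main test when above 10 CPM in at least 2 libraries, which left 10481 genes and 3 of the 8 members: Bgn, Dcn and Ogn. The other 5 never reached 10 CPM, with highest CPM values of 9.85 for Lum, 7.94 for Prelp, 7.22 for Fmod, 6.25 for Podn and 2.82 for Aspn, and their values below come from a fit to all 35414 genes with any count. Fmod had no count in 9 libraries, Podn in 6, Aspn in 5 and Ogn in 1. A count of 0 allows up to 3 counts, or 0.0229 to 0.0516 CPM depending on the library, for counting error only.

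**Figure D1:**
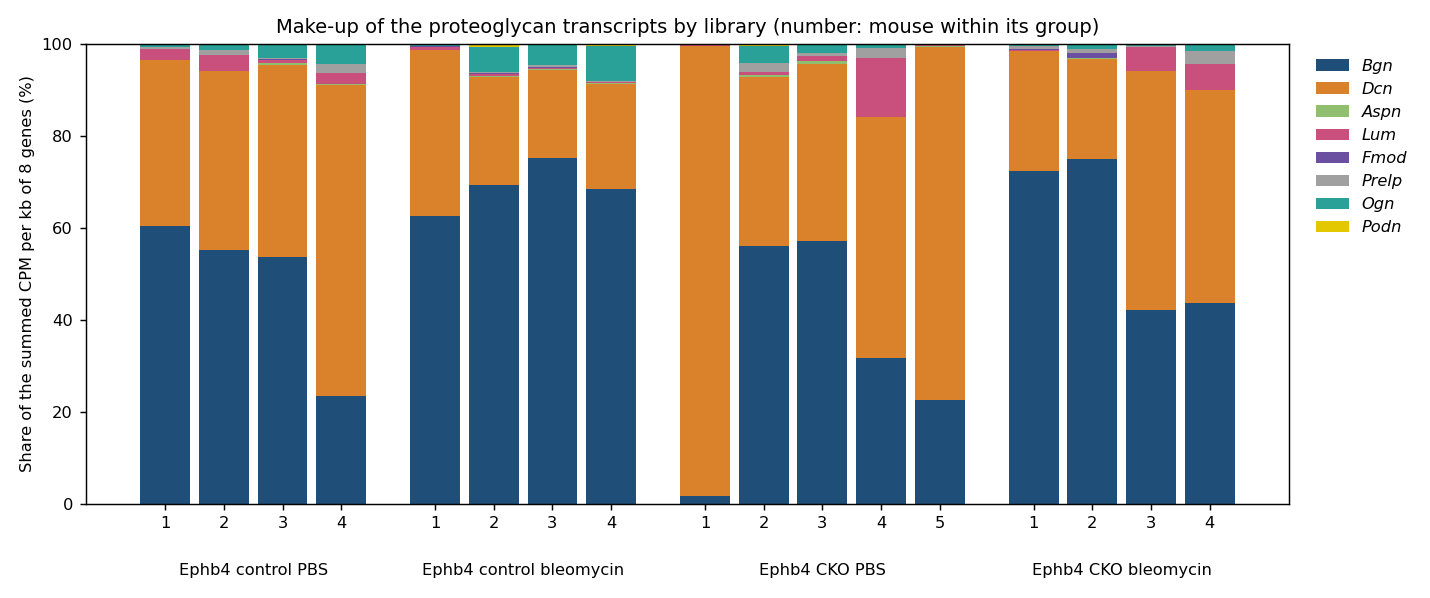
Share (%) of the summed CPM per kb of the 8 proteoglycan genes taken by each gene, as 1 stacked bar per library in 4 groups. Bgn and Dcn fill most of every bar, and Dcn fills 98.0% of the bar of Ephb4-CKO PBS mouse 1.

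Several libraries stood apart from their groups before any comparison was made. A fibroblast score, the mean log2 CPM of 15 fibroblast markers kept of 18 listed, none of them a proteoglycan of the family, was 3.01 ± 3.49 (SD, n = 4) in control PBS, 8.02 ± 0.48 (n = 4) in control bleomycin, 2.78 ± 1.90 (n = 5) in Ephb4-CKO PBS and 3.74 ± 2.63 (n = 4) in Ephb4-CKO bleomycin cultures. Control PBS mouse 3, at 7.56, was the only PBS culture within the range of the control bleomycin cultures (7.43 to 8.43). All 18 fibroblast markers had counts in every control bleomycin library, with a summed CPM of 8611 to 16346, against 108 to 3080 in the Ephb4-CKO bleomycin, 55.3 to 9415 in the control PBS and 121 to 2748 in the Ephb4-CKO PBS libraries. All 19 macrophage markers were detected in every library, so macrophage marker transcripts were present in all cultures labelled as fibroblasts. They summed to 1360 to 21473 CPM in control bleomycin and to 24382 to 44471 CPM in Ephb4-CKO bleomycin cultures. The PBS cultures were at 10610 to 46695 CPM in control and 24711 to 43330 CPM in Ephb4-CKO mice. The mean macrophage score was 7.99 in control PBS, 6.90 in control bleomycin, 8.35 in Ephb4-CKO PBS and 8.52 in Ephb4-CKO bleomycin cultures. The score of 6 smooth muscle and pericyte markers was 3.20 ± 2.84 (n = 4) in control PBS, 7.63 ± 0.17 (n = 4) in control bleomycin, 3.17 ± 1.58 (n = 5) in Ephb4-CKO PBS and 3.91 ± 2.17 (n = 4) in Ephb4-CKO bleomycin cultures, and control bleomycin cultures lay above those of control PBS and of Ephb4-CKO bleomycin mice without overlap (exact permutation p = 0.02857, adjusted p = 0.2 for each). Endothelial, epithelial, mesothelial and neutrophil scores did not pass in any comparison (exact permutation, lowest adjusted p = 0.933). No lymphocyte marker passed the filter, and Cd3e and Nkg7 had no count in control bleomycin, Upk3b (mesothelial) and Ly6g (neutrophil) none in control PBS cultures. The lymphocyte markers summed to 0.153 to 0.864 CPM in control bleomycin and 0.114 to 26.8 CPM in Ephb4-CKO bleomycin cultures. After PBS they summed to 0.095 to 34.5 CPM in control and 0.361 to 45.0 CPM in Ephb4-CKO cultures. After bleomycin the fibroblast score was lower and the macrophage score higher in Ephb4-CKO than in control cultures without overlap (exact 2-sided permutation p = 0.02857 for each, the smallest possible, adjusted p = 0.2 over 28 comparisons). In such bulk libraries fewer fibroblasts and less RNA per fibroblast cannot be told apart. Ephb4 itself was 39.0 ± 21.6 CPM (n = 4) in control bleomycin and 9.77 ± 3.76 CPM (n = 4) in Ephb4-CKO bleomycin cultures, and 16.2 ± 15.5 (n = 4) against 9.79 ± 8.20 (n = 5) after PBS. The genotypes overlapped in both: the lowest control value was 13.3 CPM after bleomycin and 2.35 CPM after PBS, and the highest Ephb4-CKO value 14.2 and 23.9 CPM. Sex-linked genes went against the labelled sex in 3 libraries, mice 1 and 2 of the Ephb4-CKO bleomycin group and mouse 2 of the control bleomycin group.

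The comparison of bleomycin with PBS in Ephb4 control mice asked how the proteoglycan genes respond to lung injury in fibroblasts that keep Ephb4. All 4 cultures from bleomycin-treated control mice were rich in Bgn, and 3 of 4 PBS cultures were not. Bgn was 28.9, 4.65, 451 and 2.68 CPM in control PBS mice 1 to 4 and 815, 567, 558 and 589 CPM in control bleomycin mice 1 to 4. The groups did not overlap, but PBS mouse 3 came close. Dcn, which binds collagen and TGF-β, was 12.6, 2.37, 254 and 5.64 CPM after PBS and 342, 139.6, 104 and 143 CPM after bleomycin. PBS mouse 3 exceeded 3 of the 4 bleomycin cultures, and the other PBS cultures lay below all of them. Ogn, a keratan sulfate proteoglycan also known as mimecan, was 0.353, 0.125, 25.6 and 0.528 CPM after PBS and 3.42, 47.3, 34.0 and 69.5 CPM after bleomycin. Here too PBS mouse 3 was high, and bleomycin mouse 1 was low for its group. Podn, a proteoglycan known to restrain smooth muscle growth, was 0.0407, 0, 2.93 and 0 CPM after PBS and 2.31, 6.25, 3.14 and 5.18 CPM after bleomycin, with PBS mouse 3 again inside the bleomycin range.

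Every one of the 8 genes had a fitted fold change above 0 in this comparison, and none passed the test. The log2 fold change was 2.38 ± 1.62 (SE) for Bgn, with an adjusted p of 0.491 (edgeR's quasi-likelihood test, Benjamini-Hochberg). It was 1.40 ± 1.57 for Dcn (edgeR, adjusted p = 0.670) and 2.54 ± 1.91 for Ogn (edgeR, adjusted p = 0.528). Across all genes kept, 0 of 10481 passed (0%), with 1494 at an unadjusted p under 0.05 and 166 called by DESeq2. Among the rarer genes the fold changes were 3.52 for Fmod, 2.58 for Podn, 2.18 for Prelp, 1.21 for Lum and 0.86 for Aspn (edgeR, adjusted p = 0.588 to 0.970). The median over the 8 genes was 2.32, against -0.0036 over all genes with any count. Bgn, Fmod and Prelp, 3 of 8, were higher in every bleomycin than in every PBS culture, as were 3.12% of all genes with any count. Fmod and Prelp, both class II members that bind collagen, did so at low levels: 0.427 to 1.77 CPM against at most 0.388 CPM for Fmod, and 2.56 to 4.73 CPM against at most 2.52 CPM for Prelp. Without control PBS mouse 3 the log2 fold change was 5.74 for Bgn, 4.76 for Dcn, 6.87 for Ogn and 8.33 for Podn (edgeR, adjusted p = 0.0928, 0.121, 0.102 and 0.160), still short of the threshold. All control bleomycin animals carried numbers of the 12 series and 3 of the 4 PBS animals numbers of the 11 series, and with the series as a covariate the value of Dcn was -0.34.

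**Figure D2:**
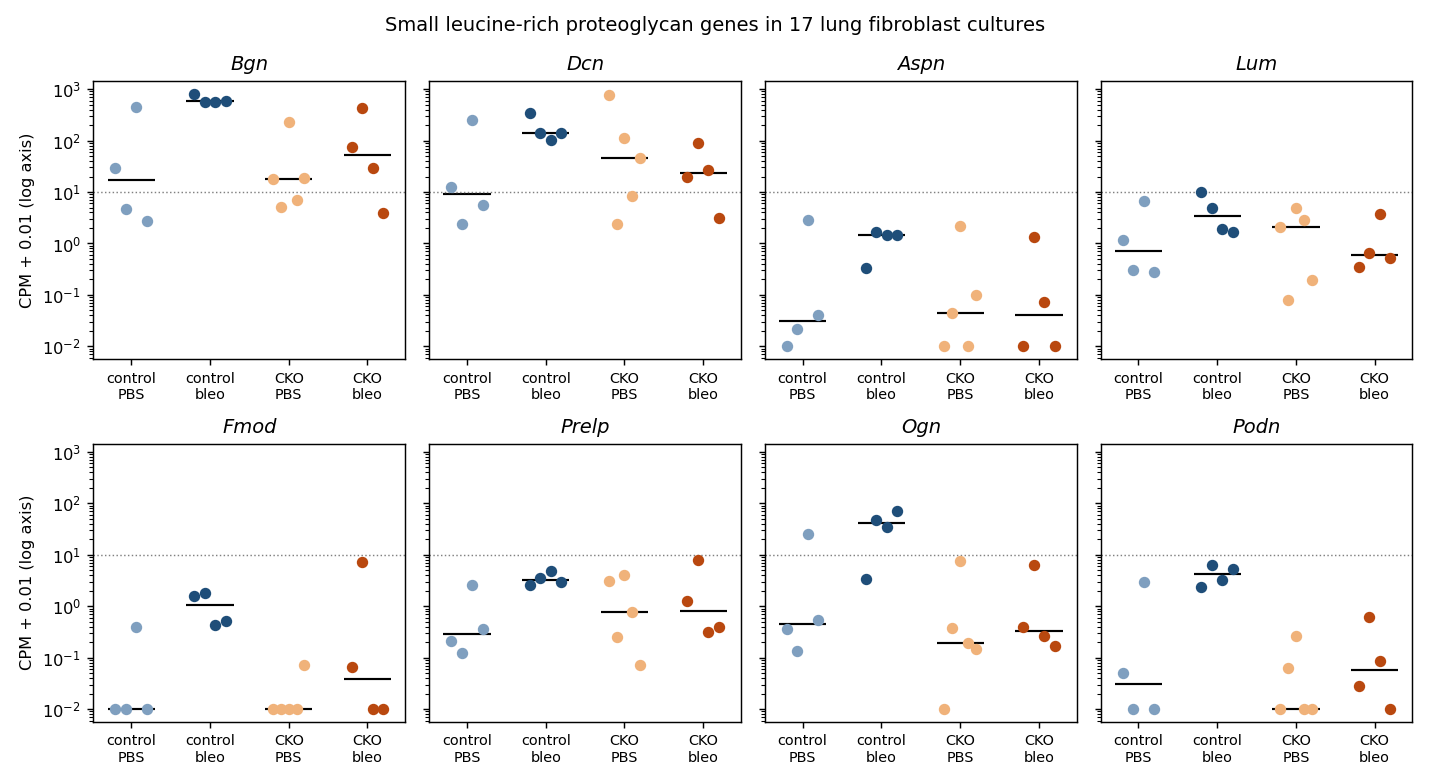
CPM (plus 0.01, log axis) of the 8 genes, 1 point per library in the 4 groups, with the group median as a bar and the filter of 10 CPM as a dotted line. Control bleomycin points cluster at 558 to 815 CPM for Bgn, while each other group spreads widely and holds 1 high culture.

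The comparison of Ephb4-CKO with control cultures after bleomycin asked how the injury response looks in mice induced to delete Ephb4 in Col1a2-expressing cells. Bgn, Dcn and Podn were lower in every Ephb4-CKO than in every control culture, and Ogn was so in 3 of 4 Ephb4-CKO cultures. Bgn was 75.2, 433, 29.9 and 3.98 CPM in Ephb4-CKO bleomycin mice 1 to 4, below the control range of 558 to 815 CPM. Mouse 2 stood near the control cultures and mouse 4 at the level of the lowest PBS cultures. Dcn was 19.8, 90.3, 26.8 and 3.06 CPM in the same order, below the control minimum of 104 CPM. Ogn was 0.389, 6.43, 0.249 and 0.155 CPM, and only mouse 2 exceeded the lowest control value of 3.42 CPM. Podn was 0.0185, 0.618, 0.0747 and 0 CPM, below the control minimum of 2.31 CPM. All control bleomycin animals carried numbers of the 12 series, as did Ephb4-CKO mice 1 and 2. Ephb4-CKO mice 3 and 4 carried numbers of the 11 series, so genotype and number series were not balanced here.

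None of these differences passed the test across all genes. The log2 fold change (Ephb4-CKO relative to control) was -2.22 ± 1.61 for Bgn (edgeR, adjusted p = 0.409), -2.38 ± 1.62 for Dcn (edgeR, adjusted p = 0.382) and -4.41 ± 2.08 for Ogn (edgeR, adjusted p = 0.248). Of the genes kept, 0 of 10481 passed (0%), 2119 had an unadjusted p under 0.05, and DESeq2 called 399. Podn had a log2 fold change of -4.59 ± 2.01, with an unadjusted p of 0.0369 and an adjusted p of 0.455 (edgeR, all genes with any count). In that fit Podn and Ogn were the 2 of 8 members lower at an unadjusted p under 0.05, as were 5.78% of all genes. The 3 of 8 members that lay below control without overlap compare with 6.26% of all genes. The remaining log2 fold changes were -1.88 ± 1.23 for Lum, -1.86 ± 2.10 for Aspn, 0.71 ± 1.85 for Fmod and -0.52 ± 1.20 for Prelp (edgeR, adjusted p = 0.5261 to 0.9601). The median over the 8 genes was -2.07, against 0 over all genes with any count.

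Ephb4-CKO bleomycin mouse 2 stood apart from its group. It had the highest Fmod and Prelp of the whole series, 7.22 and 7.94 CPM, and the highest Bgn, Dcn, Ogn, Podn and Aspn of its group. Its fibroblast score of 6.66 was also the highest of the group. Without it the log2 fold change was -4.12 for Bgn, -3.46 for Dcn, -7.18 for Ogn and -7.11 for Podn (edgeR, adjusted p = 0.213, 0.276, 0.176 and 0.341), and that of Fmod was -5.69. Without the 3 libraries whose sex-linked genes went against the labels, which include this one, the value was -5.31 for Bgn, -3.76 for Dcn, -7.49 for Ogn and -6.59 for Podn (edgeR, adjusted p = 0.315, 0.427, 0.306 and 0.536).

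**Figure D3:**
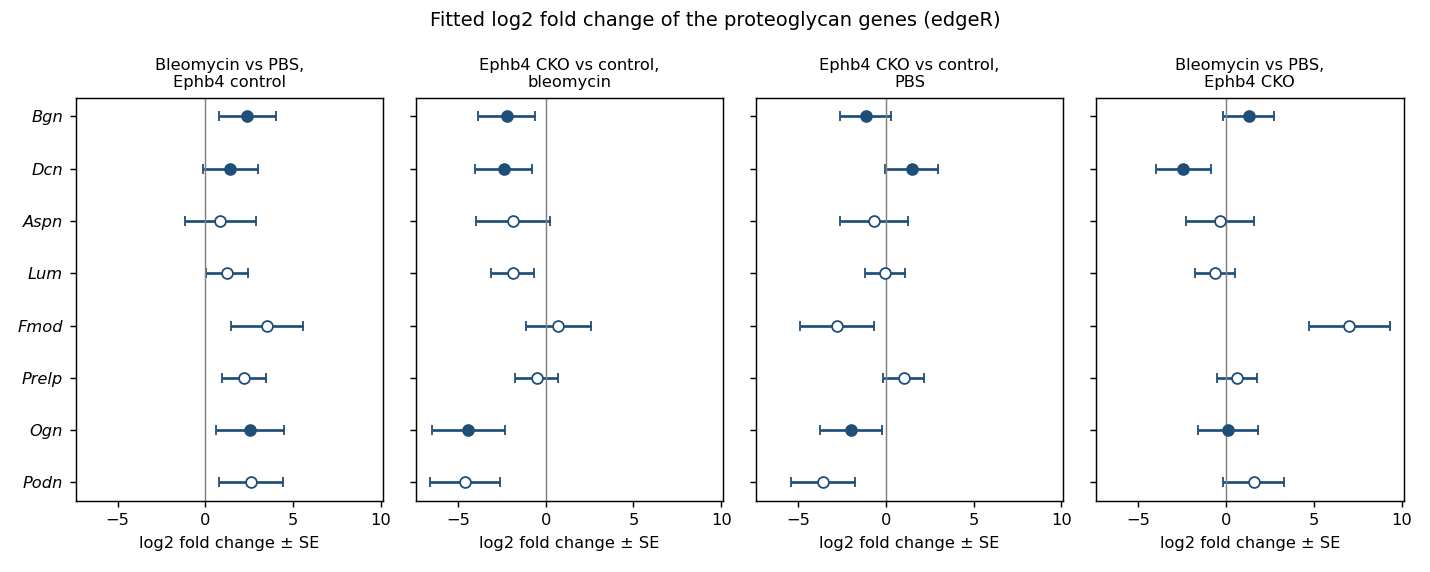
Fitted log2 fold change ± SE of the 8 genes in 4 comparisons (1 panel each, horizontal axis in log2 units), filled for the 3 genes kept by the filter and open for the 5 below it. In the first panel all 8 points lie above 0, in the second 7 lie below, and 0 of 8 passed an adjusted p of 0.05 in any panel.

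After PBS alone, Ephb4-CKO and control cultures overlapped for every member. Bgn was 18.0, 5.02, 227, 6.93 and 18.3 CPM in Ephb4-CKO PBS mice 1 to 5, against 2.68 to 451 CPM in control PBS cultures. Its log2 fold change was -1.14 ± 1.46 (edgeR, adjusted p = 0.9998). Ogn was 0, 0.361, 7.67, 0.179 and 0.138 CPM, and Podn 0, 0.0516, 0.253, 0 and 0 CPM, each highest in mouse 3, where Bgn was highest too. In this comparison 0 of 10481 genes passed (0%), with 209 at an unadjusted p under 0.05 and 1 called by DESeq2. None of the 8 members (0 of 8) separated without overlap in either direction, as 0.296% of all genes did. Single cultures moved this value: without control PBS mouse 3 the log2 fold change of Bgn was 2.19, of the opposite sign, and without Ephb4-CKO PBS mouse 3 it was -3.35, of the same sign.

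In 1 culture Dcn was far above the other 7 genes. Dcn was 780.0, 2.39, 111, 8.34 and 45.4 CPM in Ephb4-CKO PBS mice 1 to 5, and the value in mouse 1 was the highest of all 17 libraries. Bgn in mouse 1 was 18.0 CPM, and Aspn, Fmod, Ogn and Podn had no count there. Lum, at 2.05 CPM, and Prelp, at 3.08 CPM, were above their medians over the 17 libraries of 1.65 and 1.24 CPM. The ratio of Dcn to Bgn in CPM was 43.3 in this culture and 0.186 to 2.48 in the other 16, and Dcn made up 98.0% of the summed CPM per kb of the 8 genes. Of 9 fibrillar collagen genes 4 lay below the median of the other libraries there, 4 above it and 1, Col2a1, at it with no count. Those below included the main fibril chains Col1a1 (2.98 CPM), Col1a2 (2.54 CPM) and Col3a1 (1.32 CPM), where the medians of the other libraries were 38.5, 69.1 and 48.9 CPM, and Col11a1. Those above were the minor chains Col5a1, Col5a2, Col11a2 and Col5a3, the last at 396 CPM against at most 135 CPM elsewhere. The collagenase Mmp13 reached 4005 CPM, above at most 528 CPM elsewhere, and Cd14, a co-receptor of the Toll-like receptors that biglycan binds, 2185 CPM, above at most 508 CPM elsewhere. They come from lists of 10 protease and 12 receptor genes. Among the proteases 7 lay above the median of the other libraries, 2 below and 1 at it, with 2 at their highest. Among the receptors 7 lay above it, 4 below and 1 at it, with 3 at their highest. Of 19 macrophage markers 11 lay above the median of the other libraries there, 5 of them at their highest of the 17, and 8 lay below it. The macrophage score was 8.03, ranking 11 of 17 from the highest, and the fibroblast score was 1.88, ranking 13 of 17. Whether any of these values has a part in the Dcn level was not tested. Because of this culture the log2 fold change of Dcn, Ephb4-CKO relative to control after PBS, was 1.46 ± 1.52 (edgeR, adjusted p = 0.9998) and without it -0.75. With the fibroblast score as a covariate the value of Dcn was 3.88 ± 1.47 (edgeR, unadjusted p = 0.019, adjusted p = 0.9999).

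In Ephb4-CKO mice bleomycin and PBS cultures also overlapped for every member. The log2 fold change was 1.30 ± 1.46 for Bgn, -2.44 ± 1.58 for Dcn and 0.11 ± 1.72 for Ogn (edgeR, adjusted p = 1 for each). Of 10481 genes 0 passed (0%), 101 had an unadjusted p under 0.05 and DESeq2 called 1. Of the 8 members 0 separated without overlap, against 0.26% of all genes. Fmod had a log2 fold change of 7.03 ± 2.29 with an unadjusted p of 0.0074 and an adjusted p of 1 (edgeR, all genes with any count), 1 of 8 members where 0.923% of all genes were higher at that threshold. That value rested on the 759 counts of Ephb4-CKO bleomycin mouse 2, set against 5 counts in all of the PBS cultures, and was 0.62 without that mouse. The Dcn value was -0.25 without Ephb4-CKO PBS mouse 1, and that of Bgn was -0.60 without Ephb4-CKO bleomycin mouse 2.

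Whether bleomycin acted differently in the 2 genotypes was tested as an interaction. The difference of the log2 fold changes (Ephb4-CKO minus control) was -1.08 ± 2.13 for Bgn (edgeR, adjusted p = 0.954), -3.84 ± 2.22 for Dcn (edgeR, adjusted p = 0.916) and -2.43 ± 2.55 for Ogn (edgeR, adjusted p = 0.920). Of 10481 genes 0 passed (0%), 363 had an unadjusted p under 0.05 and DESeq2 called 0. The 4 comparisons share their groups, so their directions are not independent of each other.

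The members were then set against the fibroblast score of the same library. Bgn tracked it closely: its log2 CPM lay 0.08 to 2.29 above the score in all 17 libraries, while Bgn itself ranged from 2.68 to 815 CPM. Dcn lay between 1.31 below the score and 7.72 above it, the upper end being Ephb4-CKO PBS mouse 1. Over the libraries with a count, Ogn lay 0.26 to 6.59 below the score in 16 and Podn 5.45 to 8.90 below it in 11. Lum lay between 7.24 below the score and 0.48 above it, and Prelp 0.25 to 7.01 below it, in all 17. Aspn lay 3.66 to 9.93 below it in 12 and Fmod 3.80 to 8.85 below it in 8. With the score as a covariate the log2 fold change of Bgn was 0.03 ± 0.52 for bleomycin in control mice and 0.39 ± 0.46 for Ephb4-CKO relative to control after bleomycin (edgeR, adjusted p = 0.996 and 0.998), and the SE of the latter was 0.46 with the score and 1.61 without it. For Dcn the same comparisons gave -0.05 ± 1.57 and -0.32 ± 1.52 (edgeR, adjusted p = 0.998 for each). Ogn was at 0.42 ± 1.49 in control mice and -2.26 ± 1.36 for Ephb4-CKO relative to control after bleomycin (edgeR, adjusted p = 0.981 and 0.998). Podn was 0.47 ± 1.11 and -1.05 ± 1.22 (edgeR, adjusted p = 1 for each). Relative to the score Fmod was at 4.23 ± 1.36 for Ephb4-CKO relative to control after bleomycin (edgeR, unadjusted p = 0.00717, adjusted p = 0.953), again with mouse 2 as the highest culture. A score made from the same libraries is not independent of the members, and an adjusted difference near 0 leaves fewer fibroblasts and lower expression per fibroblast undivided. After bleomycin the score was 7.43 to 8.43 in control and 0.27 to 6.66 in Ephb4-CKO cultures. Without overlap, the adjusted genotype difference rests on a slope fitted over all groups and cannot show the difference at equal score. With the macrophage score as a covariate instead, the log2 fold change of Bgn for Ephb4-CKO relative to control after bleomycin was -1.18 ± 1.67. It was -0.79 ± 1.56 for Dcn and -3.70 ± 2.16 for Ogn (edgeR, adjusted p = 0.958, 0.979 and 0.956 in that order). The macrophage score did not overlap between these groups either.

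**Figure D4:**
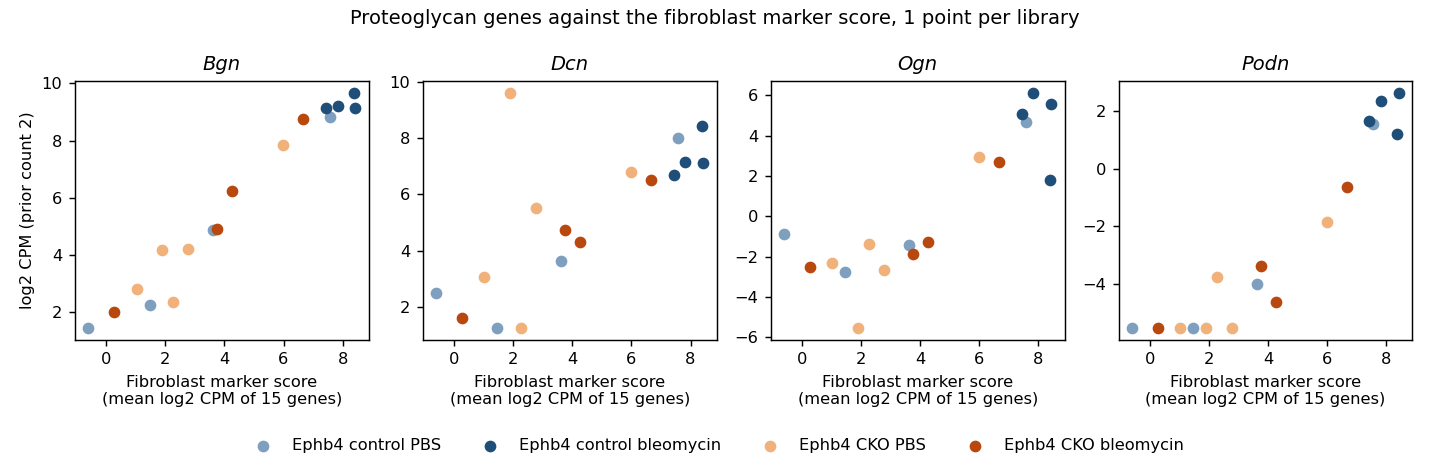
log2 CPM of Bgn, Dcn, Ogn and Podn (vertical axes) against the fibroblast score, the mean log2 CPM of 15 markers (horizontal axes), 1 point per library coloured by group. Bgn points follow the score over its whole range, and 1 Dcn point, Ephb4-CKO PBS mouse 1, lies 7.72 above it.

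The genes that build and meet these proteoglycans were read from lists. The core proteins bind fibrillar collagens, and 7 of 9 such collagen genes were kept: after bleomycin all 7 had a fitted value below 0 in Ephb4-CKO relative to control cultures, 3 at an unadjusted p under 0.05 and 0 at an adjusted p under 0.05, with a median log2 fold change of -4.23. Of all genes kept, 9.18% were lower and 11% higher at an unadjusted p under 0.05 in this comparison, the background for this and the lists that follow. Col11a1, which seeds fibrils, had the most negative value, -5.54 ± 2.04, with group means of 128 CPM in control and 2.74 CPM in Ephb4-CKO cultures (edgeR, adjusted p = 0.218). Col1a1, the main chain of type I collagen, was at -4.70 ± 2.01 (edgeR, adjusted p = 0.228). In control mice all 7 lay above 0 for bleomycin, with a median of 2.66 and 1 at an unadjusted p under 0.05, where 6.28% of all genes kept were higher at that threshold. Col1a1, Col1a2, Col3a1 and Col5a1 are also in the fibroblast marker list.

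The sugar chains are added by enzymes of the Golgi. Of 22 genes for the linkage region and for chondroitin or dermatan sulfate, 19 were kept, and after bleomycin 12 were lower and 7 higher in Ephb4-CKO cultures, with a median log2 fold change of -0.14 and 4 lower at an unadjusted p under 0.05. Those 4 were Chpf, Chsy1, Dsel and Csgalnact1. Chsy3, a chondroitin synthase, had the most negative value of the list, -3.52 ± 1.71 (edgeR, adjusted p = 0.252). Chpf, which helps extend the chondroitin chain, was 30.7 CPM on average in control and 14.9 CPM in Ephb4-CKO cultures, a log2 fold change of -1.05 ± 0.25 (edgeR, unadjusted p = 0.000667, adjusted p = 0.187). Its log2 fold change for bleomycin in control mice was 1.13 ± 0.25 (edgeR, unadjusted p = 0.00034, adjusted p = 0.268). Xylt1, which starts the linkage region, had a value of 1.31 ± 0.63 (edgeR, adjusted p = 0.250). Of 8 keratan sulfate genes 5 were kept, with 3 lower and 2 higher and a median log2 fold change of -0.56. Chst2 had the largest change, -2.49 ± 1.19 (edgeR, adjusted p = 0.250). B3gnt2 was higher at an unadjusted p of 0.0176 (edgeR, log2 fold change 1.20 ± 0.45, adjusted p = 0.218).

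Proteases that process or cleave the core proteins gave 9 genes kept of 10, with 7 lower and 2 higher in Ephb4-CKO relative to control cultures after bleomycin, 2 of them lower at an unadjusted p under 0.05 and a median of -1.45. These were Bmp1 and Mmp2. Bmp1, which trims the propeptide of biglycan and collagen, was at -2.67 ± 1.15 (edgeR, adjusted p = 0.228). Mmp2, a gelatinase, was at -1.87 ± 0.77 (edgeR, adjusted p = 0.223). Adamts4 had the largest change of the list, -3.26 ± 1.61 (edgeR, adjusted p = 0.257). Of 8 genes for ligands held by the proteoglycans 6 were kept, 4 lower and 2 higher, with Tgfb3 at -3.07 ± 1.31 and Ccn4, a matricellular protein bound by decorin and biglycan, at -4.25 ± 1.81 (edgeR, adjusted p = 0.228 for each), and Tnf higher by 2.80 ± 1.16 on the log2 scale (edgeR, adjusted p = 0.224). Of 12 receptor genes 11 were kept, 8 higher and 3 lower, with a median of 0.43. Met, a receptor tyrosine kinase that decorin binds, was higher by 2.66 ± 0.85 on the log2 scale (edgeR, unadjusted p = 0.00667, adjusted p = 0.207), and Itgb1, the common integrin beta chain, was at -1.003 ± 0.306 (edgeR, adjusted p = 0.197). Of all genes kept in this comparison, 0% passed, and the median log2 fold change was 0.01. The macrophage score was higher without overlap in the same Ephb4-CKO cultures, and the Met and Tnf values are given without adjustment for it. Its part in them was not tested.

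Of the other 10 genes of the family 1 was kept. It was Tsku, a secreted member that binds growth factors, at 70.5 CPM on average in control bleomycin and 22.8 CPM in Ephb4-CKO bleomycin cultures, a log2 fold change of -1.63 ± 0.58 (edgeR, unadjusted p = 0.0129, adjusted p = 0.211). Kera, which neighbours Dcn and Lum and is best known from the cornea, had no count in any library, and Epyc of the same cluster had none in 12. Omd, which lies between Aspn and Ogn, did not exceed 0.302 CPM.

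The genes whose log2 CPM over the 17 libraries was most like the mean of the members' standardised log2 CPM were read from the 10478 other genes kept. They were Fndc1, Gas1, Tshz3, Pdgfrb, Tgfbr3, Rcn1, Crispld2 and Heg1, with a Pearson r of 0.972, 0.968, 0.967, 0.965, 0.964, 0.964, 0.963 and 0.963. Pdgfrb is one of the fibroblast markers, and the libraries share their differences in fibroblast score, so the values describe these cultures only.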

How the data were processed

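Total RNA-Seq was measured in lung fibroblast cultures of 17 mice, grouped by their labels. Per the methods, the authors trimmed reads with Cutadapt (1.18 in the processing notes), aligned them to GRCm38 with HISAT2 2.1.0 in strand-specific mode, and estimated gene counts with StringTie against a reference annotation; its script turns coverage into whole numbers. The deposited counts were not normalized. Values of overlapping genes depend on how StringTie divided reads between them.

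From these counts CPM (TMM library sizes of the genes kept) and log2 CPM (prior count of 2) were computed. Genes above 10 CPM in at least 2 libraries were kept, and edgeR 4.0.16 (R 4.3.3) fitted 1 mean per group over all 17 libraries, with Benjamini-Hochberg adjustment at 0.05. The study's batch term could not be repeated, since no source used here names each library's batch. Of the gene identifiers, 55154 matched GENCODE M21. The code was tested on simulated counts. Alternatives were DESeq2 1.42.0, limma voom (limma 3.58.1), other normalizations, filters, sample sets and covariates, and each mouse left out. Marker scores were compared by exact permutation over 28 comparisons. The members, lists and tests were chosen with earlier results of these data known. Genes of a list are named by role, largest change or unadjusted p.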

Additional observations from a re-analysis of the deposited data

Results flagged for a closer look

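Dixon's ratio divides the gap between a culture and its nearest neighbour by the range of its group. Within groups of 4 or 5 cultures, it passed its limit and flagged a culture in 24 of 32 sets of CPM values. A chance rate of about 1 in 20 holds for normally distributed values, not for skewed CPM with zeros. The count of flags is therefore not set against chance. Control PBS mouse 3 was the high culture for all 8 genes, with 451 CPM of Bgn, 254 of Dcn, 2.82 of Aspn, 6.57 of Lum, 0.388 of Fmod, 2.52 of Prelp, 25.6 of Ogn and 2.93 of Podn, and its fibroblast score, 7.56, was the highest of the PBS cultures. Ephb4-CKO bleomycin mouse 2 was high for Bgn at 433 CPM, Aspn at 1.32, Fmod at 7.22, Prelp at 7.94, Ogn at 6.43 and Podn at 0.618. Ephb4-CKO PBS mouse 3 was high for Bgn at 227 CPM, Aspn at 2.14, Ogn at 7.67 and Podn at 0.253. Control bleomycin mouse 1 was high for Bgn at 815 CPM and Dcn at 342 CPM and low for Aspn at 0.319 CPM, with the lowest macrophage score of all cultures, 3.97. The remaining values were 780.0 CPM of Dcn in Ephb4-CKO PBS mouse 1, 0.0627 CPM of Fmod in Ephb4-CKO PBS mouse 5, from 5 counts, and 3.69 CPM of Lum in Ephb4-CKO bleomycin mouse 3. The genes were measured in the same libraries, so these flags are not independent of each other.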

How the results depend on the processing

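No member reached an adjusted p of 0.05 in any of 517 recomputed values (smallest 0.0867); 462 kept their direction and 55 changed it. Low counts limit what can be read from Fmod, Podn and Aspn, which had no count in 5 to 9 libraries. No paired analysis was possible because the replicate numbers follow accession order. The cause of the changes below was not tested, beyond what leaving out a named culture shows. DESeq2 gave no adjusted p for Bgn or Aspn.

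Genes called by DESeq2 were 166 for bleomycin in control mice, 399 for Ephb4-CKO against control after bleomycin, and 1 each for Ephb4-CKO against control after PBS and for bleomycin in Ephb4-CKO mice, against 0 by edgeR. Leaving out a culture gave 0 to 2 calls for bleomycin in control mice (2 without Ephb4-CKO bleomycin mouse 2), 0 to 1 for Ephb4-CKO against control after bleomycin (1 without control bleomycin mouse 2) and 0 otherwise.

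The median log2 fold change of the 8 genes for bleomycin in control mice was 4.44 with limma voom, 0.24 with the fibroblast score as a covariate, and 1.91 to 6.03 without 1 culture, the highest without control PBS mouse 3 (5.35 with Fmod, then at 0 in every PBS culture, at its bound of 3 counts per library). For Ephb4-CKO against control after bleomycin it was 0.22 with the fibroblast score, -5.23 without the 3 cultures whose sex genes went against the labels (-4.83 with Fmod at its bound), and -4.92 to -1.67 without 1 culture, the lowest without Ephb4-CKO bleomycin mouse 2. After PBS it was -2.88 to 2.58 without 1 culture (lowest without Ephb4-CKO PBS mouse 3, highest without control PBS mouse 3, 2.26 with Fmod at its bound). In Ephb4-CKO mice it was -2.59 without the cultures of contrary sex genes (-1.94 with Fmod at its bound) and -1.12 to 3.48 without 1 culture (lowest without bleomycin mouse 2, highest without PBS mouse 3). The interaction median was -3.51 with voom, -4.41 without the cultures of contrary sex genes (-4.35 without Fmod) and -5.52 to 0.95 without 1 culture (control PBS mouse 3, -6.61 without Fmod, and Ephb4-CKO PBS mouse 3), with -3.50 without Ephb4-CKO bleomycin mouse 2.

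With the fibroblast score these values changed sign: for bleomycin in control mice Dcn -0.054 and Aspn -1.92; for Ephb4-CKO against control after bleomycin Bgn 0.39, Aspn 0.59, Lum 0.12 and Prelp 0.57; after PBS Bgn 0.26, Aspn 0.090, Lum 1.04 and Fmod 4.04; for bleomycin in Ephb4-CKO mice Prelp -0.41, Ogn -0.29 and Podn -0.12; and for the interaction Bgn 0.13 and Aspn 0.50. With the macrophage score Bgn (0.18), Aspn (0.84) and Lum (0.80) did so after PBS. With voom they were Fmod after bleomycin (-3.71) and in the interaction (-3.14), and Bgn after PBS (0.050). With sex as a covariate Fmod after bleomycin was -1.44 and Lum after PBS 0.0081. With the number series Dcn for bleomycin in control mice was -0.34, Lum after PBS 0.12 and Aspn for bleomycin in Ephb4-CKO mice 2.26. With the column run Lum after PBS was 0.32 and Aspn for bleomycin in Ephb4-CKO mice 2.33. Upper quartile normalization gave Lum 0.13 after PBS. Without the cultures of contrary sex genes Fmod was -9.29 after bleomycin and -6.50 in the interaction, and for bleomycin in Ephb4-CKO mice Bgn was -1.72, Lum 0.064, Fmod -3.34, Prelp -2.19, Ogn -3.06 and Podn -0.69.

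Leaving out 1 culture at a time turned the direction of these genes. For Ephb4-CKO against control after bleomycin the log2 fold change ranged from -5.69 to 1.19 in Fmod. For the same after PBS the log2 fold change ranged from -3.35 to 2.19 in Bgn, -0.75 to 4.80 in Dcn, -4.49 to 4.80 in Aspn, -0.64 to 1.85 in Lum, -6.19 to 3.38 in Fmod, -5.34 to 2.31 in Ogn and -5.94 to 2.21 in Podn. For bleomycin in Ephb4-CKO mice the log2 fold change ranged from -0.60 to 3.48 in Bgn, -4.41 to 3.48 in Aspn, -1.28 to 1.25 in Prelp, -2.65 to 3.44 in Ogn and -0.95 to 3.93 in Podn. For the interaction the log2 fold change ranged from -4.38 to 1.11 in Bgn, -6.61 to 2.63 in Aspn, -2.90 to 6.97 in Fmod, -6.69 to 0.92 in Ogn and -6.75 to 1.35 in Podn. Fmod had no count in a whole group without control PBS mouse 3, without Ephb4-CKO PBS mouse 5 or without the cultures of contrary sex genes, so its fitted values there are not bounds.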
